A study of Mus musculus with 5 samples.

Results

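Killer cell lectin receptors and granzymes are the surface receptors and granule proteins that natural killer (NK) cells and killer T cells use to recognise and lyse other cells. Their genes were followed in leukocytes of the mouse liver at postnatal day 14 and after partial hepatectomy. The members were every gene of the deposited tables whose symbol starts with Klra, Klrb, Klrc, Klrd, Klre, Klrg, Klri, Klrk or Gzm, plus Prf1 and Ncr1, which came to 38 of 31053 genes. Over all leukocytes of the 5 libraries, 30 of the 38 had at least 20 unique molecular identifiers (UMIs, the tags that mark single captured mRNA molecules). Klri1, Klrg2, Klra10 and Gzmf had 19, 5, 4 and 1 UMIs, and Gzmd, Gzme, Gzmg and Gzmn had none.

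The samples were droplet single-cell libraries (10x v3 chemistry) of liver cells from C57BL/6J mice, an inbred strain, isolated by perfusion and passed over a dead-cell removal kit. The groups were postnatal day 14 (P14, normal mice), an adult control, and 3 groups of adults at 24 h, 48 h and 96 h from 2/3 partial hepatectomy (PHx), surgery that was done at 8 weeks of age. Each group was 1 library. The sex and the number of mice per library are not given in the labels. The protocol text counts the adult control among the operated samples, whereas its title, source and age entry call it an adult control, as it is treated here. The code in the descriptions ended in L002 for the adult control and in L001 for the other 4 libraries, and what it marks cannot be told apart from the group.

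Leukocytes were barcodes with at least 1000 UMIs, at least 500 genes, under 10% mitochondrial UMIs and at least 3 UMIs of the leukocyte genes Ptprc, Coro1a and Laptm5 together. Of these, 252 came from P14, 976 from the adult control, 592 from 24 h, 1166 from 48 h and 665 from 96 h, 3651 in all. They were divided by the CD3 genes Cd3d, Cd3e and Cd3g, which encode chains of the T cell receptor complex. The CD3-negative sets, without a UMI of the 3 genes, held 166, 370, 363, 697 and 489 cells in that order. The CD3-detected sets held 86, 606, 229, 469 and 176 cells. The adult control library stood apart in size, with 68549 barcodes of at least 1000 UMIs against 5015 to 19508 in the other 4. Among the leukocytes, 1 barcode was shared between libraries, by 48 h and 96 h.

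NK cells read the balance of inhibitory receptors, which bind MHC class I molecules or related proteins on healthy cells, and activating receptors, which bind stress-induced or pathogen-derived ligands. When activation prevails, granules are released in which perforin opens the target cell membrane and granzymes, serine proteases, enter and start cell death. The liver is rich in NK cells, in type 1 innate lymphoid cells (ILC1) that share many of these receptors, and in T cells that carry them too.

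The annotation (GRCm38.p6, the mm10 build of the deposited tables) placed all 38 members. On chromosome 6 lie 26 of them, 25 in the stretch from the start of Klrg1 at 122270596 to the end of Klra2 at 131247716, known as the NK gene complex. A run of 7 granzyme genes, Gzmb among them, lies on chromosome 14 from 56117619 to 56262334. Gzma (113093824 to 113100981) and Gzmk (113171630 to 113180965) lie on chromosome 13, Prf1 (61297751 to 61304684) and Gzmm (79689020 to 79695261) on chromosome 10, and Ncr1 on chromosome 7 (4337715 to 4345184).

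The 250 bases before the RefSeq start (GRCm38.p6) are shown for 3 members that were lower together in CD3-negative cells of the other libraries than of the adult control, Gzma, Gzmb and Ncr1, and for 1 member that did not move with them after PHx, Klra17. They are written 5′ to 3′ on the gene's own strand, and capitals mark the Runx motif TGTGGT or its reverse complement ACCACA, searched on both strands.
Gzma, chr13:113100982-113101231, minus strand: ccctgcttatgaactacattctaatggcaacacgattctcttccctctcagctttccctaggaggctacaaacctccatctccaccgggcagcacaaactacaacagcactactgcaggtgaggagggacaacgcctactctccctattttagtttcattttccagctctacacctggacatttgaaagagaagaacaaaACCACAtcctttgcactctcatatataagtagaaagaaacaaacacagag
Gzmb, chr14:56262335-56262584, minus strand: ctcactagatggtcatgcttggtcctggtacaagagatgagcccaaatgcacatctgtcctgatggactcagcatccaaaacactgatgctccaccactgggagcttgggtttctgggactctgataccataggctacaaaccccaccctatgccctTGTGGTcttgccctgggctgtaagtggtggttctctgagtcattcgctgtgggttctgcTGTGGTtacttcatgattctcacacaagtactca
Ncr1, chr7:4337465-4337714, plus strand: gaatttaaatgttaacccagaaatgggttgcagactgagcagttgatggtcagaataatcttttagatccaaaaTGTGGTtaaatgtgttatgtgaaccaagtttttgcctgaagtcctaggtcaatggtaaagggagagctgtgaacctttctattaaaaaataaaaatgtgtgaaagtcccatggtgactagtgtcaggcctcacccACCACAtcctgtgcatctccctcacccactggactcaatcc
Klra17, chr6:129876673-129876922, minus strand: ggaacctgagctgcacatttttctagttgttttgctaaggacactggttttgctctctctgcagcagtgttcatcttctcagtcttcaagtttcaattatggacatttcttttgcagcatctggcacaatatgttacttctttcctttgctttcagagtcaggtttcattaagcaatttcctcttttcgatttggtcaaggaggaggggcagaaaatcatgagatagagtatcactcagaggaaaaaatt
The Gzma window held 1 match, 50 bases before the start. Gzmb held 2, at 93 and 34 bases, and Ncr1 held 2, at 176 and 41 bases. The Klra17 window held none, and neither did those of Klrb1b, Klrb1f, Klra3, Klra4, Klra7, Klra8 and Klra9, which were lower than in the adult control at P14, 24 h and 48 h. Promoter entries existed for 35 members in 42 windows, and 20 of the 42 (47.6%) held the motif, against 14.0% of all 32851 promoter windows of this length. The 20 count both overlapping windows of Ncr1 and both of Klrc2. They also count neighbouring genes of the same family, among them Gzmd, Gzme, Gzmg and Gzmf, which had at most 1 UMI. The windows are thus not separate observations. The T-box motif GGTGTGA was in 2 of the 42 (4.76%) and in 3.33% of all windows. A match is a run of letters and not a measured binding site.

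Levels are given as CPM, the UMIs of a gene per 1e6 UMIs summed over a set of cells without mitochondrial genes. The sums held 2248912 to 5824051 UMIs in the CD3-negative sets and 921450 to 4154018 in the CD3-detected sets. A gene was compared between sets where both together held at least 20 of its UMIs, and was called higher or lower where log2((CPM + 1)/(CPM + 1)) reached 1, a 2-fold difference. With 1 library a group there is no replicate and no test. The 95% intervals (exact Poisson for CPM, exact conditional for ratios, exact binomial for shares of cells) cover counting error only, not the spread between mice. Those for CPM and ratios take every UMI as independent. They thus also leave out the spread between cells, where 1 cell can hold many UMIs of a gene. All 4 comparisons with the adult control share that library. A member passes the 20-UMI rule through whichever library holds more of it, so counts and medians over the members that passed are descriptions.

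Summed over all 38 members, CD3-negative leukocytes held 133 CPM at P14, 4387 CPM in the adult control, 645 CPM at 24 h, 1161 CPM at 48 h and 1369.7 CPM at 96 h. The CD3-detected leukocytes held 4667, 1645, 2333, 2398 and 2786 CPM in the same order. The adult control thus had the highest sum of the 5 libraries without CD3 and the lowest with it. Cells of the NK or ILC1 class, described below, made up 3.01% of CD3-negative cells at P14 (5 cells), 22.97% in the control library (85), 6.06% at 24 h (22), 8.32% at 48 h (58) and 6.95% at 96 h (34). The same markers without the Trac gene and whatever the CD3 genes, a set added after the data had been seen, gave 14.3%, 14.2%, 10.8%, 11.8% and 9.17% of all leukocytes, and by that definition the intervals of P14 (10.2 to 19.2) and the adult control (12.1 to 16.6) overlapped. Within a summed set, fewer cells of a type and less RNA per cell cannot be told apart.

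**Figure D1:**
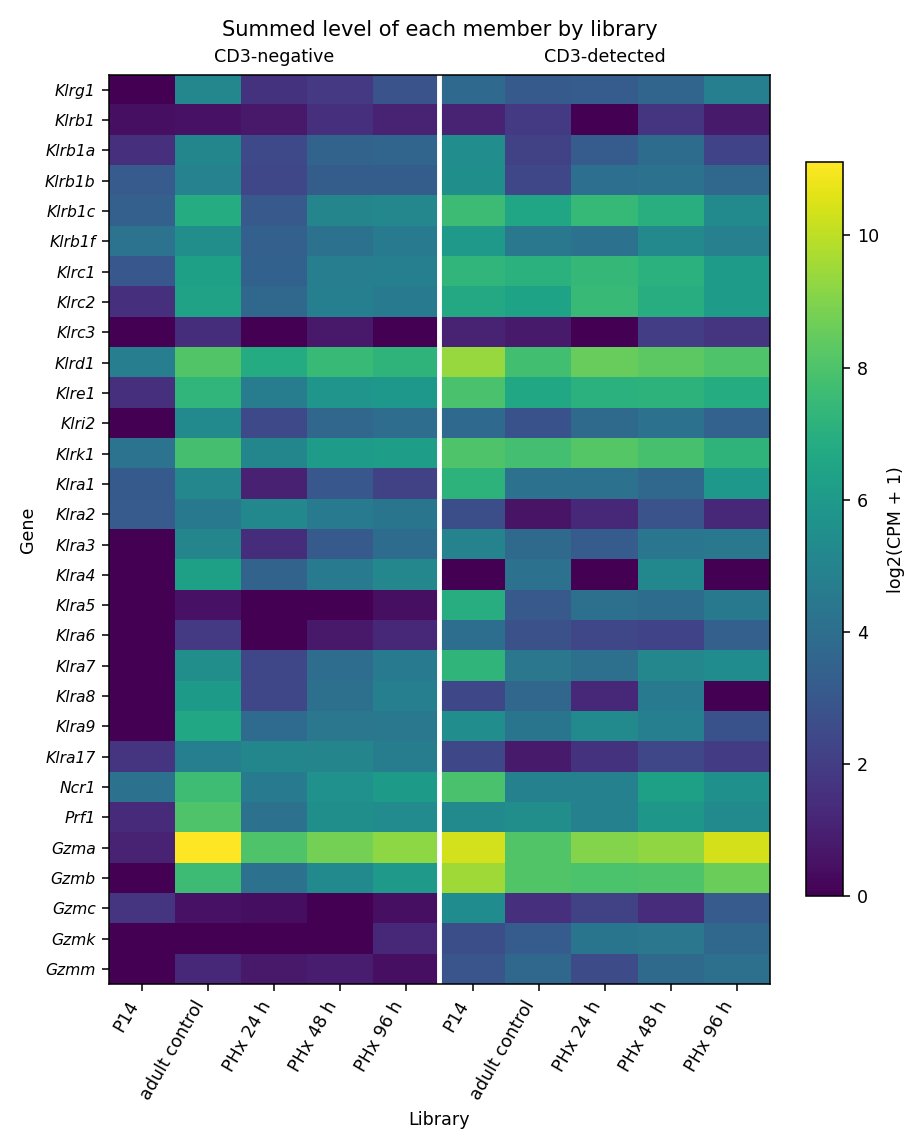
Level of the 30 members with at least 20 UMIs, as log2(CPM + 1), in the CD3-negative (left) and CD3-detected (right) leukocytes of the 5 libraries, 1 library per column and 1 gene per row. Most rows of the CD3-negative panel are brightest in the adult control, and the Klra17 and Klra2 rows are as bright or brighter at 24 h.

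Among CD3-negative leukocytes, 23 members could be compared with the adult control in each of the 4 comparisons, and none was at least 2-fold higher in any (12.4%, 5.87%, 4.37% and 2.95% of all genes compared were, at P14, 24 h, 48 h and 96 h). At P14 all 23 were lower, where 17.9% of all genes compared were. At 24 h 21 were lower (16% of all genes), at 48 h 20 (11.9%) and at 96 h 18 (6.64%). The exceptions were Klra17 and Klra2 at all 3 times after PHx, Klrd1 at 48 h and 96 h, and Klrb1f and Klra7 at 96 h. The median log2 ratio of the 23 was -4.86 at P14, -2.87 at 24 h, -1.71 at 48 h and -1.49 at 96 h, against -0.06, -0.32, -0.15 and -0.02 over all genes compared. Among barcodes with under 5% mitochondrial UMIs the 96 h count was 10 rather than 18.

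Of the granule proteins, Gzma, a granzyme of trypsin-like specificity, had the most UMIs. Its CD3-negative level was 1.16 CPM at P14 (3 UMIs), 2198 CPM in the adult control (4942 UMIs), 259 CPM at 24 h, 442 CPM at 48 h and 601 CPM at 96 h. Every operated library lay between P14 and the adult control, and was lower than the latter by 8.47-fold (interval 7.85 to 9.15) at 24 h, 4.97-fold (4.74 to 5.22) at 48 h and 3.66-fold (3.46 to 3.87) at 96 h. After each cell was thinned to 1000 UMIs, Gzma was found in 0% of CD3-negative cells at P14 (0 of 166 cells, exact interval up to 2.20%), 20.3% in the control library, 4.13% at 24 h, 6.89% at 48 h and 5.93% at 96 h, and without thinning in 1.81%, 22.2%, 4.41%, 7.75% and 7.16%. In hepatocyte-type barcodes, which should lack Gzma and show the background of free RNA, the thinned shares were 0.0541%, 0.374%, 0.12%, 0.218% and 0.200%.

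Gzmb, the granzyme that cleaves after aspartate and activates caspases, was at 0, 195, 16.7, 38.1 and 62.9 CPM in CD3-negative cells of P14, the adult control, 24 h, 48 h and 96 h. It was at least 168-fold lower at P14 than in the adult control, 11.7-fold lower at 24 h (8.68 to 16.0), 5.11-fold at 48 h and 3.09-fold at 96 h. Prf1, which encodes perforin, was at 1.55, 267, 16.7, 45.8 and 39.8 CPM. That made Prf1 172-fold lower at P14 (66.9 to 634), 16.0-fold at 24 h (11.9 to 21.9), 5.82-fold at 48 h (5.03 to 6.75) and 6.71-fold at 96 h (5.46 to 8.29), the last 2 with overlapping intervals. Gzmm, Gzmc and Gzmk stayed at or under 2.33 CPM in CD3-negative cells of every library.

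**Figure D2:**
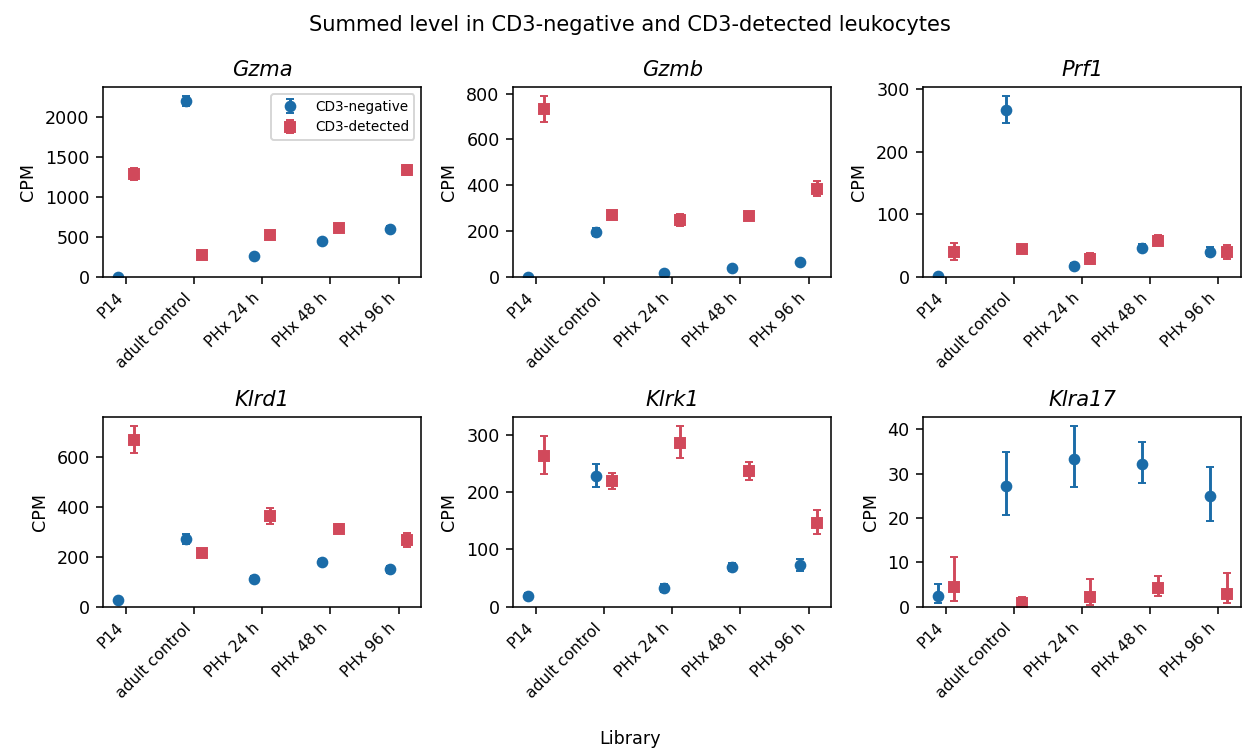
Level in CPM of Gzma, Gzmb, Prf1, Klrd1, Klrk1 and Klra17 in the 5 libraries, with blue circles for CD3-negative and red squares for CD3-detected leukocytes and bars for 95% Poisson counting intervals. Gzma reaches 2198 CPM in CD3-negative cells of the adult control and 1334 CPM in CD3-detected cells at 96 h.

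Among the activating receptors, Ncr1, which encodes NKp46, was at 16.7 CPM in CD3-negative cells at P14, 202 in the control library, 23.2 at 24 h, 47.4 at 48 h and 65.1 at 96 h. It was 12.1-fold lower at P14 than in the adult control (8.87 to 17.0), 8.74-fold lower at 24 h (6.76 to 11.4), 4.27-fold lower at 48 h and 3.11-fold lower at 96 h. Klrk1, which encodes NKG2D, a receptor for stress-induced ligands, was at 17.8, 227, 32.7, 68.9 and 72.7 CPM in the same order. It was lower by 12.7-fold, 6.95-fold, 3.30-fold and 3.13-fold. Klrb1c, which encodes NK1.1, the antigen by which NK cells of this strain are usually stained, was at 9.69, 118, 7.49, 32.6 and 34.0 CPM. For Ncr1, Klrk1 and Klrb1c the adult control was the highest library by more than 3-fold.

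Klrd1 encodes CD94, the partner of the NKG2 chains in a receptor for a non-classical MHC class I molecule. Klrd1 was at 26.0 CPM in CD3-negative cells at P14, 270.4 in the control library, 111 at 24 h, 179 at 48 h and 149 at 96 h. After PHx its ratios to the adult control were smaller than those of its partners Klrc1 and Klrc2. It was lower by 10.4-fold at P14 (8.08 to 13.6), 2.43-fold at 24 h (2.12 to 2.79), 1.51-fold at 48 h (1.36 to 1.67) and 1.81-fold at 96 h (1.60 to 2.06). Klrc1, which encodes the inhibitory chain NKG2A, was at 6.98, 78.3, 9.87, 25.6 and 27.1 CPM and lower by 11.2-fold, 7.93-fold, 3.06-fold and 2.89-fold. Klrc2, which encodes the activating chain NKG2C, was at 1.94, 84.5, 11.9, 26.8 and 23.9 CPM and lower by 43.6-fold, 7.09-fold, 3.15-fold and 3.54-fold. Klre1, which pairs with Klri1 or Klri2, was at 1.94, 158, 24.9, 54.9 and 60.04 CPM, and Klri2, the activating partner, at 0, 38.7, 4.43, 11.7 and 14.8 CPM.

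Klrb1a, Klrb1b and Klrb1f, of the NKR-P1 family, were also highest in the adult control. Klrb1a was at 1.94, 33.3, 4.43, 10.6 and 11.2 CPM in CD3-negative cells, and Klrb1b at 8.14, 29.3, 4.09, 8.76 and 8.68 CPM. Klrb1f was at 17.8, 43.6, 9.53, 16.5 and 22.4 CPM, 2.44-fold lower at P14 (1.71 to 3.55) and 1.94-fold lower at 96 h (1.40 to 2.72). Klrb1 and Klrc3 had few UMIs, with at most 1.89 CPM for Klrb1 and at most 1.78 CPM for Klrc3 in any CD3-negative set (Klrb1 at 48 h, against 0.445 CPM in the adult control), and at most 2.65 and 3.09 CPM in any CD3-detected set.

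The Klra genes encode the Ly49 receptors, the main MHC class I receptors of mouse NK cells. Their sequences are close to one another, so that reads can be split between them and single Klra counts are uncertain; the same holds for the Klrb1 genes. Summed over the family, CD3-negative cells held 18.2 CPM at P14, 405 in the control library, 104 at 24 h, 145 at 48 h and 167 at 96 h. Klra4 and Klra8, the activating receptors Ly49D and Ly49H, were at 0 UMIs at P14 and at 79.1 and 64.9 CPM in the adult control, at least 68.1-fold and at least 55.8-fold higher. Klra4 was at 10.6, 23.4 and 34.4 CPM at 24 h, 48 h and 96 h, and Klra8 at 4.09, 16.0 and 26.4 CPM. The inhibitory receptor Ly49I, encoded by Klra9, was at 0, 97.4, 13.6, 20.3 and 21.0 CPM. Klra7, which encodes Ly49G2, was at 0, 44.0, 4.09, 14.8 and 22.1 CPM, and Klra3, which encodes Ly49C, at 0, 32.0, 1.70, 7.73 and 14.1 CPM. For each of these 5 genes, P14 was the lowest library, followed in order by 24 h, 48 h, 96 h and the adult control, with close neighbours for Klra9 at 48 h and 96 h.

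Klra1, which encodes Ly49A, was at 7.75, 34.2, 1.02, 7.04 and 3.62 CPM in CD3-negative cells of P14, the adult control, 24 h, 48 h and 96 h. It was 33.5-fold lower at 24 h than in the adult control (3 UMIs; 11.05 to 166) and 9.47-fold lower at 96 h (4.88 to 20.5). Of its CD3-negative UMIs over the 5 libraries, 86.1% were in the NK or ILC1 class and 13.9% in B cells, and all 20 UMIs of P14 were in B-type cells. Klrg1, an inhibitory cadherin receptor of mature NK cells and effector T cells, was at 0, 34.2, 2.04, 2.58 and 6.15 CPM. It was at least 29.4-fold lower at P14, 16.8-fold lower at 24 h, 13.3-fold lower at 48 h and 5.57-fold lower at 96 h.

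Klra17 and Klra2 had another pattern after PHx. Klra17, which encodes Ly49Q, an inhibitory receptor known from plasmacytoid dendritic cells (pDC) and neutrophils, was at 2.33 CPM in CD3-negative cells at P14, 27.1 in the control library, 33.4 at 24 h, 32.3 at 48 h and 25.0 at 96 h. Klra2, which encodes Ly49B, known from myeloid cells, was at 8.14, 21.8, 35.8, 22.3 and 18.8 CPM. The ratio of the adult control to 24 h was 0.813 (0.581 to 1.13) for Klra17 and 0.609 (0.425 to 0.863) for Klra2, neither of them 2-fold. Their shares of cells with a UMI, thinned to 1000 UMIs, for Klra17 were 0.602%, 1.62%, 3.31%, 3.01% and 2.04%.

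CD3-negative cells were assigned to a class where they held at least 2 different markers of it, more than of any other. The markers of the NK or ILC1 class were Nkg7, Il2rb, Txk, Eomes, Tbx21, Xcl1, Ccl5 and Cd7, none of them a member. T cell receptor genes were detected in this class in every library, as described below. With the 5 libraries pooled, this class held 98.9% of the CD3-negative UMIs of Gzma, 99.1% of Gzmb, 96.1% of Prf1, 98.5% of Ncr1, 90.8% of Klrk1, 97.8% of Klrc1, 98.9% of Klrc2 and 99.5% of Klra4. Klrb1f, an activating receptor of the NKR-P1 family, was less concentrated, with 73.0% in the class (28.3 to 90.8% by library). Klrd1 was divided between the NK or ILC1 class, with 44.8% (29.1 to 71.4% by library), and pDC, with 47.7% (25.5 to 67.6%). Klra17 lay with 70.1% in pDC and 24.9% in neutrophils, and Klra2 with 50.7% in neutrophils (18.4 to 66.7% by library) and 43.7% in mononuclear phagocytes (28.6 to 77.6%), so that its order turned between libraries.

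**Figure D3:**
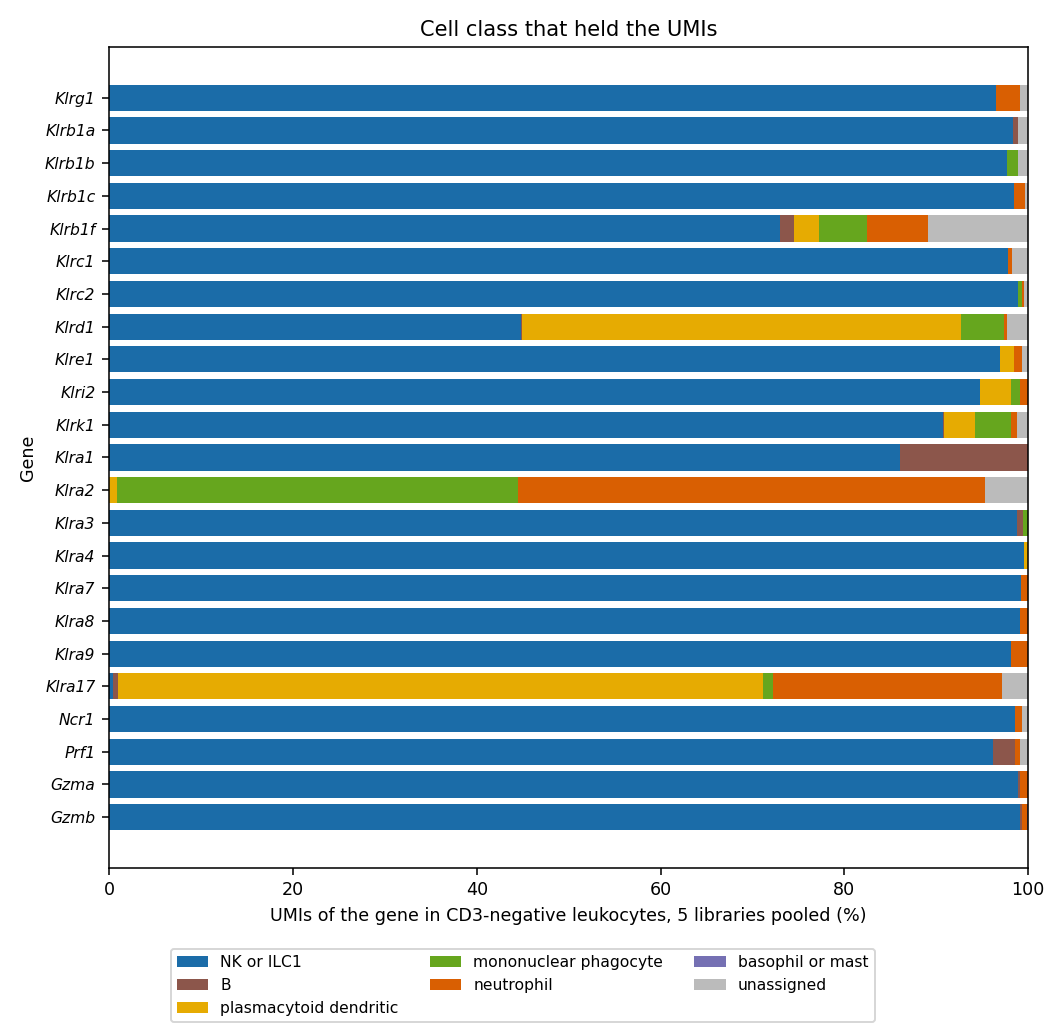
Share in percent of each gene's CD3-negative UMIs that lay in each cell class, for 23 members with the 5 libraries pooled, as stacked bars. The NK or ILC1 class takes over 90% of most bars, and Klrd1, Klra17 and Klra2 show large pDC, neutrophil or mononuclear phagocyte segments.

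In pDC, Klrd1 stood at 229 CPM at P14, 345 in the control library (293 to 404), 450.5 at 24 h (393 to 514), 472 at 48 h (435 to 511) and 438 at 96 h. At least 1 UMI of Klrd1 was found in 7 of 9, 42 of 49, 54 of 69, 116 of 128 and 41 of 44 pDC. In B cells Klrd1 was at 0, 2.23, 0, 1.36 and 0 CPM. The pDC made up 5.42% of CD3-negative cells at P14, 13.2% in the control library, 19.01% at 24 h, 18.4% at 48 h and 8.998% at 96 h. Klra17 stood in pDC at 19.1, 120.3, 126, 94.6 and 149 CPM, lowest at P14, and the intervals of the adult control (90.4 to 157) and of 96 h (112 to 193) overlapped. In neutrophils Klra17 stood at 6.74, 31.4, 28.2, 31.7 and 24.0 CPM. Klra2 in mononuclear phagocytes was at 26.6, 238, 81.2, 72.9 and 80.7 CPM, highest in the adult control (168 to 326, 14 cells). In neutrophils, which were 43.5% of CD3-negative cells at 24 h and 11.9% in the adult control, Klra2 was at 31.5, 56.6, 55.6, 44.1 and 42.0 CPM.

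Within the NK or ILC1 class the differences after PHx were smaller than in all CD3-negative cells. The member sum was 22177 CPM in the control library, 15578 at 24 h, 20129 at 48 h and 16804 at 96 h. Of 21 members compared, 6 were lower at 24 h (19.8% of all genes compared), 1 at 48 h (14.7%) and 3 at 96 h (13.9%), and none was higher (5.12%, 4.18% and 5.29% of all genes). The counts of lower members are thus near the share of all genes at 24 h and 96 h and under it at 48 h. The medians of the 21 were -0.45, 0.12 and -0.24, against -0.16, -0.03 and -0.08 over all genes. Gzma stood at 11454 CPM in the control library (11134 to 11781), 8391 at 24 h (7805 to 9009), 9224 at 48 h (8870.0 to 9588) and 8228 at 96 h (7837 to 8634), and was detected in 75 of 85, 15 of 22, 47 of 58 and 31 of 34 cells. It was lower by 1.37-fold (1.26 to 1.48), 1.24-fold (1.18 to 1.30) and 1.39-fold (1.32 to 1.47), all under 2-fold. Among barcodes with under 5% mitochondrial UMIs, the sign at 96 h turned for Gzma, with a log2 ratio of 0.12 against -0.48, and for Gzmb, Ncr1 and Klrb1c, with 0.36, 0.30 and 0.14.

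Prf1, the perforin gene, at 24 h and 96 h and Klrg1 at 24 h, 48 h and 96 h passed the 2-fold mark in this class. Since the counts of lower members were near or under the share of all genes, these are values of single genes. Prf1 stood at 1390.2 CPM in the control library, 475 at 24 h, 896 at 48 h and 526 at 96 h. It was lower by 2.93-fold at 24 h (2.15 to 4.09), 1.55-fold at 48 h (1.33 to 1.81) and 2.64-fold at 96 h (2.14 to 3.28). In barcodes with under 5% mitochondrial UMIs the log2 ratio of Prf1 at 96 h was -0.95, under the 2-fold mark, against -1.40. Klrg1 stood at 172, 66.2, 54.0 and 84.4 CPM and was lower by 2.60-fold (1.14 to 7.32), 3.19-fold (1.81 to 5.99) and 2.04-fold (1.19 to 3.69) at 24 h, 48 h and 96 h. With under 5% mitochondrial UMIs its log2 ratio at 96 h was -0.41. Gzmb stood at 1022, 541, 792 and 859 CPM, and was 1.89-fold lower at 24 h (1.40 to 2.59).

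The receptors that were at least 2-fold lower at 24 h in the NK or ILC1 class were Klrg1, Klrb1c, Klra8, Klra3 and Klra1. Klrb1c went from 614 CPM in the adult control to 243 at 24 h, 669.6 at 48 h and 467 at 96 h, 2.53-fold lower at 24 h (1.63 to 4.10). Klra8 stood at 338, 132, 335 and 362 CPM, and Klra3 at 169.9, 55.2, 162 and 184 CPM, so that 48 h and 96 h were close to the adult control for both. Klra1 stood at 182, 33.1, 144 and 49.7 CPM, 5.49-fold lower at 24 h on 3 UMIs (1.81 to 27.2) and 3.66-fold lower at 96 h (1.89 to 7.93). The class held 22 cells at 24 h, which limits these values.

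**Figure D4:**
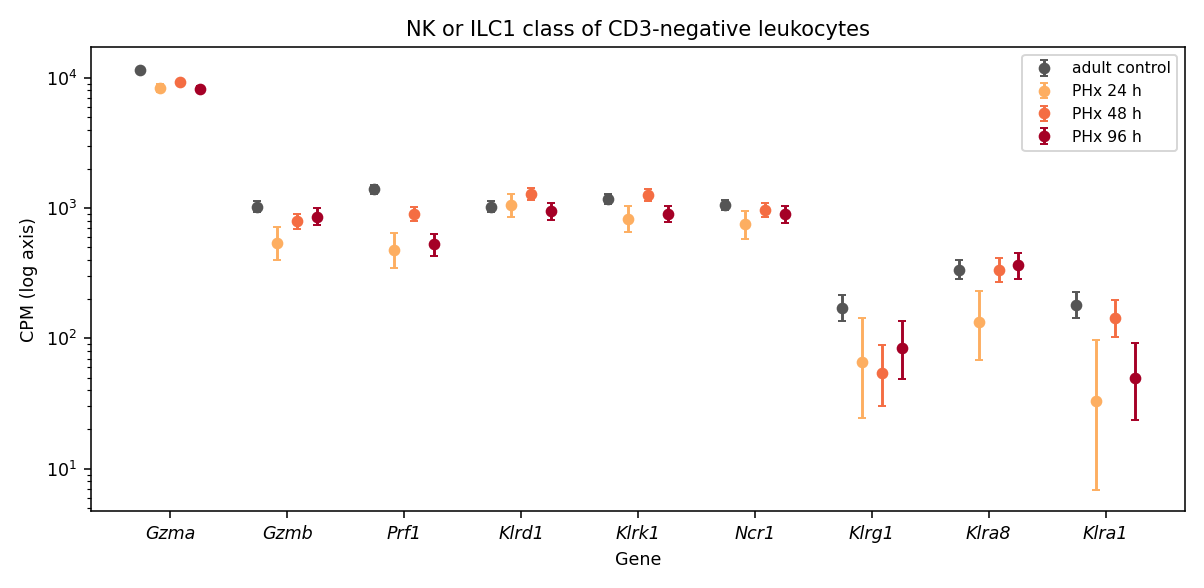
Level in CPM, on a log axis, of 9 members in the NK or ILC1 class of the adult control (85 cells), 24 h (22), 48 h (58) and 96 h (34), with 95% Poisson counting intervals. Prf1 is lowest at 24 h (475 CPM) and Klrg1 at 48 h (54.0 CPM), and both are highest in the adult control.

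Other receptors differed less in the class. Klrd1 stood at 1024 CPM in the control library (930.2 to 1125), 1049 at 24 h (849 to 1282), 1278 at 48 h (1149 to 1418) and 943 at 96 h (814 to 1088), where the interval of 48 h lay above those of the adult control and 96 h and the others overlapped. Klre1 stood at 814, 751, 1109 and 824 CPM, Klrk1 at 1168, 828, 1253 and 904 CPM, and Ncr1 at 1055, 751, 968 and 894 CPM. Klra4 stood at 420.1, 342, 482 and 472 CPM and was found in 29 of 85, 6 of 22, 20 of 58 and 13 of 34 cells.

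Detection of members in the same cells of the class is given beside the share in all cells of the class. Klrd1 was found in 49 of 50, 14 of 14, 36 of 37 and 16 of 16 cells with Klrc1 in the adult control, 24 h, 48 h and 96 h. It was found in 65 of 67, 17 of 17, 45 of 46 and 25 of 25 cells with Klrc2. Klrd1 was however found in 81 of 85, 19 of 22, 57 of 58 and 32 of 34 of all cells of the class, close to those shares. Klre1 was found in 34 of 37, 6 of 6, 25 of 27 and 16 of 17 cells with Klri2, and in 75 of 85, 19 of 22, 54 of 58 and 31 of 34 of all cells, again close. Gzma was found in 71 of 72, 12 of 14, 33 of 38 and 24 of 24 cells with Gzmb, and Prf1 in 73 of 75, 13 of 15, 46 of 47 and 25 of 31 cells with Gzma. Gzma was found in 75 of 85, 15 of 22, 47 of 58 and 31 of 34 of all cells of the class, and Prf1 in 79 of 85, 14 of 22, 54 of 58 and 27 of 34. Klra8 was found in 26 of 29, 3 of 6, 10 of 20 and 11 of 13 cells with Klra4, against 42 of 85, 4 of 22, 21 of 58 and 20 of 34 of all cells. Klra9 was found in 12 of 29, 1 of 6, 9 of 20 and 8 of 13 cells with Klra4. Of all cells, Klra9 was found in 45 of 85, 9 of 22, 28 of 58 and 16 of 34. The cells were not thinned for these counts, and reads can be split between Klra genes.

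Each NK cell is known to switch on its own subset of Ly49 genes. With every cell thinned to 1000 UMIs, at least 1 Klra gene was found in 74.1% of the class in the control library (63 of 85 cells, 63.5 to 83.0) and in 50% at 24 h (11 of 22, 28.2 to 71.8). At 48 h the share was 70.7% (41 of 58, 57.3 to 81.9), and at 96 h 64.7% (22 of 34, 46.5 to 80.3). At least 3 were found in 11.8%, 0%, 6.90% and 17.6%. Without thinning, at least 1 was found in 87.1%, 68.2%, 79.3% and 73.5%. The intervals of the 4 libraries overlapped.

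**Figure D5:**
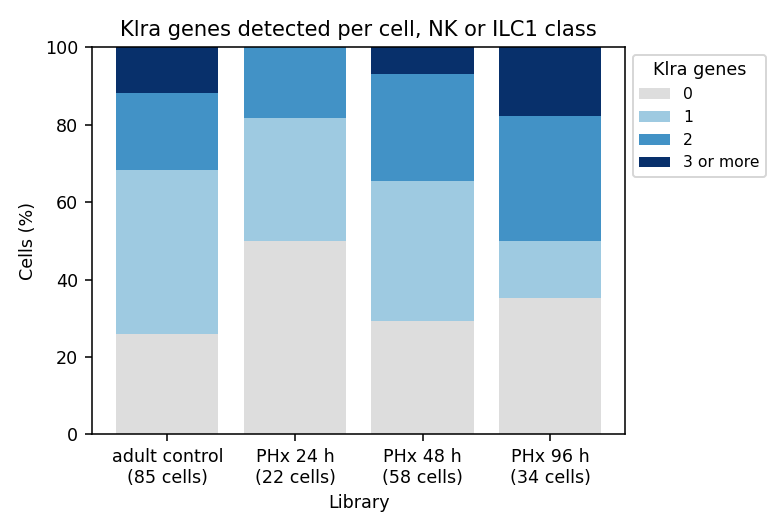
Share in percent of NK or ILC1 class cells with 0, 1, 2 or at least 3 Klra genes, after thinning each cell to 1000 UMIs, in the adult control (85 cells), 24 h (22), 48 h (58) and 96 h (34), as stacked bars. The share without any Klra gene is smallest in the adult control, at 25.9%, and is 50% at 24 h.

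At P14 the class held 5 cells, with none of its marker Eomes and with 1883 CPM of T cell markers. Its P14 values thus say little about NK cells. In the adult control, Eomes was found in 42.4% of the class, and T cell markers stood at 847 CPM. Trbc, the T cell receptor beta constant genes, was found in 100% of class cells at P14 and 83.5% in the adult control. After PHx it was found in 77.3%, 82.8% and 79.4%. The part of T cell receptor genes in the class values was not tested in any library. In the 5 cells of P14, Klra UMIs were absent, Gzma had 1 UMI, and Ncr1 and Klrd1 stood at 1446 and 908 CPM. Of the 21 members compared with the adult control, 13 were lower and 2 higher, where 27.4% and 11.8% of all genes were. Because the class was this small at P14, a set of NK or ILC1 class cells without Trac, the T cell receptor alpha constant gene, whatever their CD3 genes, was added after the data had been seen. It held 36 cells at P14, 139 in the control library, 64 at 24 h, 138 at 48 h and 61 at 96 h. Trdc, a gamma-delta T cell receptor gene, was found in 47.2% of its P14 cells and 32.4% of its adult control cells, Cd3g in 83.3% and 43.2%, and the NK gene Eomes in 5.56% and 29.5%. The part of this difference in make-up in the values was not tested.

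In that set, Ncr1 stood at 697 CPM at P14, 658 in the control library, 364 at 24 h, 674 at 48 h and 583 at 96 h. Gzmb stood at 1124, 827, 837, 797 and 860.1 CPM, and Klrd1 at 991, 769, 907, 1061 and 795 CPM. P14 was within 2-fold of the adult control for each of these 3, with ratios of 1.06 (0.901 to 1.24) for Ncr1, 1.36 (1.19 to 1.55) for Gzmb and 1.29 (1.12 to 1.48) for Klrd1. Hepatocyte markers summed to 34478 CPM in the P14 set and to 12753 CPM in the adult control set, and their part was not tested. Of 23 members compared at P14, 9 were lower (12.7% of all genes compared), among them Gzma, Prf1, Klrg1, Klra4 and Klra8, and 2 were higher (5.38%), Klra5 and Gzmc. In the same comparison 8 of 11 circulating NK markers were lower, and of 10 ILC1 markers compared 3 were higher and 1, Il7r, was lower. In the 5 cells of the class at P14, 8 of 11 circulating NK markers were lower and 5 of 7 ILC1 markers higher. Their part in the members' values was not tested. Prf1 stood at 69.7, 653, 197, 428 and 298 CPM, Gzma at 2872, 6633, 4558, 5156 and 5536 CPM, and Klra8 at 12.1, 208, 37.2, 190.0 and 189 CPM. Klra5, which encodes Ly49E, known from fetal and newborn NK cells and from ILC1, stood at 199.96, 28.0, 44.6, 42.1 and 62.2 CPM. After PHx, 7 of 22 were lower at 24 h (16.1%), 1 of 23 at 48 h (13.4%) and 2 of 22 at 96 h (13.2%), with Prf1 lower at 24 h and 96 h and Klrg1 lower at 24 h and 48 h. The counts of lower members at 48 h and 96 h are under the share of all genes. Higher in this set were none at 24 h (3.52%), Gzmm at 48 h (3.04%) and Klra5 at 96 h (3.79%).

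Among CD3-detected leukocytes the adult control was often the lower library. At P14, 16 of 26 members were at least 2-fold higher than in the adult control (7.46% of all genes compared) and 2 were lower (11%). At 24 h 5 of 25 were higher (3.65%) and 3 lower (10.4%), at 48 h 8 of 26 were higher (4.09%) and none lower (12.1%), and at 96 h 6 of 25 were higher (2.22%) and 5 lower (8.74%). The medians were 1.19, 0.31, 0.54 and 0.42, against -0.00, -0.14, -0.18 and -0.15 over all genes. With each member's richest cell left out, calls were lost for Klrb1c, Klra6, Klra9 and Klra3 at P14, Klrb1a, Klri2 and Gzmk at 24 h, and Klrb1b and Klra7 at 96 h. Without barcodes that held markers of more than 1 class, 18 of 18 calls remained at P14, 7 of 8 at 24 h, 5 of 8 at 48 h and 9 of 11 at 96 h, and the sign turned for Klra2 at 48 h and Klra7 at 96 h. The CD3-detected sets also held neutrophil markers, 30010 CPM at P14, 314 in the control library, 17742 at 24 h, 56388 at 48 h and 3657 at 96 h, with a median of 0 UMIs per cell in each library, and their part in the results was not tested.

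The CD3-detected set of P14 differed in its T cells as well, with Trac in 47.7% of cells and Trdc in 25.6%, against 85.0% and 5.45% in the adult control. Their part in the P14 values was not tested. Gzma stood at 1283 CPM in CD3-detected cells at P14, 269.6 in the control library, 527 at 24 h, 609 at 48 h and 1334 at 96 h. It was higher than in the adult control by 4.76-fold at P14 (4.38 to 5.17), 2.26-fold at 48 h (2.10 to 2.43) and 4.95-fold at 96 h (4.59 to 5.33). Of the 96 h UMIs, 35.4% came from 1 cell, and without it the level was 884 CPM. The thinned shares of cells with Gzma were 19.8%, 4.13%, 7.42%, 9.38% and 6.82%, so that 96 h was near 24 h in cells while highest in CPM.

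Gzmb was at 731, 272, 246, 263 and 384 CPM in CD3-detected cells, 2.69-fold higher at P14 (2.44 to 2.96) and within 2-fold of the adult control at all 3 times after PHx. Prf1 was at 39.1, 43.6, 28.0, 57.6 and 38.8 CPM and within 2-fold in all 4 comparisons. Gzmc, a granzyme of the chromosome 14 run, was at 41.2, 1.93, 3.50, 1.69 and 8.05 CPM, 21.4-fold higher at P14 (9.84 to 53.1). Gzmk, a granzyme found mostly in memory-type CD8 T cells, was at 5.43, 8.43, 18.9, 19.95 and 12.4 CPM, and 1 cell held 59.3% of its UMIs at 24 h and 70.6% at 96 h. Gzmm, a granzyme that cleaves after methionine, was at 6.51, 12.0, 4.90, 13.5 and 16.1 CPM, 2.45-fold lower at 24 h (1.11 to 6.42).

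Of the receptors in CD3-detected cells, Klrd1 was at 667 CPM at P14, 215 in the control library, 361 at 24 h, 312 at 48 h and 266 at 96 h, 3.10-fold higher at P14 (2.80 to 3.44). Thinned to 1000 UMIs, Klrd1 was found in 39.5%, 16.0%, 26.6%, 23.2% and 17.0% of these cells, against at most 0.291% of hepatocyte-type barcodes. Ncr1 was at 238, 28.6, 28.0, 79.3 and 46.8 CPM, 8.30-fold higher at P14 (6.61 to 10.5) and 2.77-fold higher at 48 h (2.23 to 3.46). Klrk1 was at 263, 219, 286, 236 and 146 CPM, within 2-fold in all 4 comparisons. Klrc2 was at 102, 86.4, 185, 121 and 68.0 CPM, 2.14-fold higher at 24 h (1.82 to 2.52), and Klrc1 at 155, 137, 170, 135 and 67.3 CPM, 2.04-fold lower at 96 h (1.63 to 2.57).

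The Ly49 family summed to 521 CPM in CD3-detected cells at P14, 113 in the control library, 104 at 24 h, 178 at 48 h and 163 at 96 h. Klra6, which encodes Ly49F, was at 15.2, 5.78, 4.203, 3.65 and 9.51 CPM, and was lost as a call at P14 without its richest cell. In CD3-negative cells Klra5 and Klra6 were at most at 0.445 and 2.67 CPM. Klra5 was at 120.5, 7.70, 16.1, 14.1 and 21.2 CPM, 15.6-fold higher at P14 (10.5 to 24.0) and 2.75-fold higher at 96 h. Klra7 was at 154, 19.98, 16.1, 34.0 and 41.7 CPM, 7.71-fold higher at P14 (5.84 to 10.2), and at 96 h 77.2% of its UMIs were in 1 cell. Klra1 was at 144, 17.3, 16.8, 12.4 and 59.99 CPM, and at P14 70.7% of its UMIs were in 1 cell, without which the level was 43.5 CPM. Klra4 was at 0, 16.6, 0, 34.8 and 0 CPM, but its UMIs lay in 6 of 606 cells in the control library (0.990%, interval 0.364 to 2.14) and in 9 of 469 cells at 48 h. With no UMI of it in 86, 229 and 176 cells at P14, 24 h and 96 h, a lower share of cells with a UMI was not detectable there. Klra8 was at 4.34, 11.8, 1.40, 22.5 and 0 CPM, with UMIs in 1, 6, 1, 13 and 0 cells, again few cells in each library.

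The NKR-P1 genes varied among themselves in CD3-detected cells. Klrb1b, which encodes an inhibitory receptor, was at 45.6, 4.09, 15.4, 17.4 and 12.4 CPM. It was higher than in the adult control in all 4 comparisons, by 11.1-fold, 3.77-fold, 4.26-fold and 3.04-fold, the last of which was under 2-fold without its richest cell. Klrb1a was at 42.3, 3.61, 8.41, 14.3 and 3.66 CPM and Klrb1c at 193, 92.9, 174, 125 and 38.0 CPM. Klrb1c was 2.44-fold lower at 96 h (1.83 to 3.33). Klrg1 was at 13.0, 7.94, 8.41, 11.2 and 26.3 CPM, 3.32-fold higher at 96 h (2.01 to 5.49), where 1 cell held 44.4% of its UMIs.

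The CD3-detected cells were divided by Trdc and by the co-receptor genes Cd8 and Cd4. Cells with Trdc numbered 22 at P14, 33 in the control library, 17 at 24 h, 39 at 48 h and 6 at 96 h. Their Gzmb stood at 861, 751, 1195, 977 and 762 CPM and their Klrd1 at 929, 550, 1281, 820.5 and 1016 CPM. In every library both levels were above those of the Cd8 cells, which had Gzmb at 721, 153, 172, 108 and 360.3 CPM and Klrd1 at 688, 238, 280, 302 and 296 CPM. Gzma stood at 1778, 1397, 122, 3778 and 185 CPM in cells with Trdc and at 423, 154, 405, 227 and 1752 CPM in Cd8 cells. In the 82 Cd8 cells at 96 h, 54.8% of the Gzma UMIs were in 1 cell, and at P14 93.1% were. Gzmk was at 0, 19.1, 52.1, 53.4 and 20.8 CPM in Cd8 cells. Cd4 cells, numbering 4, 97, 21, 61 and 24, had Klrd1 at 301, 71.5, 228, 111 and 34.5 CPM.

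Divided instead by Trac, after the data had been seen, Ncr1 in CD3-detected cells stood at 61.8, 9.43, 2.69, 8.12 and 17.3 CPM in cells with Trac. In cells without Trac or Trdc it stood at 560.3, 161, 125, 166 and 123 CPM, higher in each library. These cells also held neutrophil markers, at 127983, 466, 88854, 219863 and 20474 CPM with a median of at most 1 UMI per cell, and mononuclear phagocyte markers, at 5093, 818, 1668, 5382 and 406 CPM. Cd3e was found in 6.90% of them at P14 and in 60.9% in the adult control. The part of these differences was not tested. Gzma was at 454, 91.3, 166, 205 and 1224 CPM with Trac and at 2463, 1286, 2201, 939 and 1938 CPM without Trac or Trdc. Klra7 was at 272, 17.8, 12.6, 17.9 and 52.0 CPM with Trac and at 0, 30.7, 35.3, 53.1 and 0 CPM without.

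Within each library the balance of the 2 sets differed. In the adult control, 15 of 27 members were at least 2-fold higher in CD3-negative than in CD3-detected cells (9.47% of all genes compared) and 3 were lower (4.84%), namely Klra5, Gzmm and Gzmk. At P14 none of 20 was higher (13%) and 19 were lower (10.2%). At 24 h 3 of 22 were higher (12.4%) and 15 lower (8.34%), at 48 h 2 of 26 higher (12.7%) and 13 lower (5.25%), and at 96 h 6 of 26 higher (14.1%) and 9 lower (3.88%). Klra17 and Klra2 were among the higher members in the adult control and at all 3 times after PHx. Klra5 was among the lower members in all 5 libraries, but at 24 h only with its richest cell. Without each member's richest cell, calls were lost for Klra3 at P14, for Klra5, Klra1, Gzma and Gzmk at 24 h, and for Gzmm, Gzma and Gzmk at 96 h. Among barcodes with under 5% mitochondrial UMIs, 14 of 18 calls remained at 24 h and 8 of 15 at 96 h, and the sign turned for Klra7 at 24 h and Gzma at 96 h.

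Of the other genes of the pathway, 10 lists were followed in the NK or ILC1 class after PHx. Some hold markers of the class, namely Nkg7 (granule genes), Xcl1 and Ccl5 (effector genes) and Il2rb (cytokine receptors). Tbx21 and Eomes are among the transcription factors, and Eomes also among the circulating NK genes. Their levels in the class are partly set by how it was chosen. At 24 h 1 of 4 other NK receptors compared was lower and 1 of 7 cytokine receptors higher, and these lists are not described further in the class. Among genes of granule formation and release, 2 of 10 compared were lower at 24 h, 4 of 13 were lower and 2 higher at 48 h, and 3 of 10 were lower at 96 h, with medians of -0.63, 0.01 and -0.79, while 19.8%, 14.7% and 13.9% of all genes compared in the class were lower and 5.12%, 4.18% and 5.29% higher. The granule count at 24 h is thus at the share of all genes. Lamp2, a lysosome membrane protein, was lower at each time, at 248 CPM in the adult control and 66.2 CPM at 24 h (6 UMIs). Rab27a, which brings granules to the membrane, was at 16.5 CPM in the adult control and 64.8 CPM at 48 h. Of the receptor adaptors and signalling genes, Syk, a kinase downstream of activating receptors, was at 18.9 CPM in the control library, 72.0 at 48 h and 64.6 at 96 h, the only gene of that list past 2-fold at 48 h among 13 compared, with 0 of 11 at 24 h and 1 of 13 at 96 h, which is near the share of all genes. Ifng, the interferon gamma gene, was at 54.3 CPM in the adult control and 209.8 CPM at 24 h, and the chemokine gene Ccl3 at 186 and 464 CPM. They were the 2 of 5 effector genes higher at 24 h (list median 0.17), with 1 of 5 higher at 48 h and 0 of 5 at 96 h. At those times Ifng stood at 57.6 and 64.6 CPM and Ccl3 at 184 and 189 CPM.

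In all CD3-negative cells the shares of all genes compared that were lower were 17.9% at P14, 16% at 24 h, 11.9% at 48 h and 6.64% at 96 h, beside which the lists are read. Of the death ligands and granzyme inhibitors, 4 of 7 compared were lower at P14, 4 of 6 at 24 h, 4 of 7 at 48 h and 4 of 7 at 96 h, with medians of -2.92, -2.06, -1.31 and -1.19. Of 13 transcription factors compared, 7 were lower at P14, 7 at 24 h, 2 at 48 h and 3 at 96 h, and 1, 0, 0 and 2 were higher. Of the 14 receptor adaptors and signalling genes, 6, 4, 4 and 6 were lower and none was higher. Of the 14 granule genes, 4, 2, 2 and 3 were lower and 1, 2, 1 and 0 higher, and the lower counts at 24 h and 48 h are near the share of all genes. The shares of all genes that were higher were 12.4%, 5.87%, 4.37% and 2.95%. Of the other NK receptors, 2 of 7, 3 of 7, 1 of 8 and 1 of 6 were lower in the same order, and 3, 1, 1 and 0 higher. Of the effector genes, 5 of 5, 4 of 7, 2 of 7 and 1 of 6 were lower and none was higher. Of the receptor ligands, 6 of 7, 3 of 6, 1 of 7 and 0 of 6 were lower, and 1, 0, 0 and 0 higher. Of 10 cytokine receptors, 5, 4, 3 and 2 were lower and 1, 0, 0 and 0 higher. Within the NK or ILC1 class none of the 4 death ligands or inhibitors, 5 receptor ligands or 7 (24 h) and 11 (48 h) transcription factors compared passed 2-fold at 24 h or 48 h. The transcription factor list includes Tbx21 and Eomes, which are markers by which the class was chosen. At 96 h 1 of 4 death ligands or inhibitors, the granzyme inhibitor gene Serpinb9b, was lower (94.4 against 24.8 CPM) and 1 of 12 transcription factor genes, Ikzf2, was higher (18.9 against 64.6 CPM, the adult control first in both), where 13.9% of all genes in the class were lower and 5.29% higher. For both genes the smaller value rests on few UMIs, in a class of 423687 UMIs in the adult control and 201382 at 96 h.

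Markers of circulating NK cells and of ILC1 were followed in the class. Of 11 circulating NK genes, 5 were lower at 24 h, 1 at 48 h and 2 at 96 h, with medians of -0.26, 0.02 and 0.12, where 19.8%, 14.7% and 13.9% of all genes compared were lower. S1pr5, a receptor for exit from tissue, was at 120 CPM in the adult control and 44.2 CPM at 24 h. Itgam was at 99.1 and 33.1 CPM. The class at 24 h held 90578 UMIs, where 66.2 CPM is 6 UMIs, so that both of these 24 h values rest on fewer. No intervals are given for the genes of these lists. Il7r, an ILC1 gene, was at 26.0 CPM in the control library, 166 at 24 h, 97.2 at 48 h and 64.6 at 96 h. It is also in the cytokine receptor list and is the gene of that list that was higher at 24 h. Of the ILC1 list, 1 of 6 compared was higher at 24 h, 1 of 7 at 48 h and 2 of 7 at 96 h, where 1 was lower, with medians of 0.63, 0.32 and 0.07. Of all genes compared, 5.12%, 4.18% and 5.29% were higher, which for 6 or 7 genes is less than 1 gene. A count of 1 gene cannot be set apart from that. The part of these markers in the Klrg1, Klra and Prf1 values was not tested. Erythroid genes made up 16510 CPM in the class of the adult control, with a median of 1 UMI per cell, against 84.4 to 342 CPM after PHx, and their part was not tested.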

How the data were processed

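Single-cell libraries of mouse liver were analysed from the UMI count matrices as the authors deposited them, raw counts per gene and barcode that were not normalized. Per the submitters' processing notes, bcl2fastq 2.17.1.14, Cell Ranger, Seurat 3.1 and the mm10 build were used, and the matrix headers give software version 3.0.2. The step that each tool served is not given in the sources used here. The matrices held unfiltered barcodes, and each sample had 1 library, so nothing was averaged.

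Barcodes with at least 1000 UMIs, at least 500 genes, under 10% of UMIs on the 13 mitochondrial genes and at least 3 UMIs of Ptprc, Coro1a and Laptm5 were kept as leukocytes and split at 1 UMI of Cd3d, Cd3e or Cd3g. Their median depth was 4077 to 9237 UMIs in CD3-negative and 4852 to 7833 in CD3-detected cells. Counts were summed per set, and CPM excluded mitochondrial genes. Genes with at least 20 UMIs in both sets together were compared on log2 with a pseudocount of 1 CPM. No replicate exists, so no test was run. Where a set had 0 UMIs, the fold bound used a floor of 3 counts over that set. Cell classes needed at least 2 different markers. Thinning to 1000 UMIs used seed 7. No doublet caller was run; 4 to 81 barcodes per library held CD3 genes with at least 2 UMIs of phagocyte genes, 5 to 22 with at least 2 of B cell genes, and leaving out mixed barcodes was an alternative. Named genes were the 30 members with at least 20 UMIs in all, and, of the other lists, at most 4 per list past 2-fold in the comparison described. Members and lists were chosen with earlier results of these data known. Python 3.11.15, numpy 2.4.6, scipy 1.17.1, matplotlib 3.10.9, R 4.3.3 and edgeR 4.0.16 (TMM scaling, an alternative) were used, and the calls were checked on simulated data. The simulation drew independent counts with known changes in genes of many UMIs. It therefore does not cover the spread between cells or genes of few UMIs. Alternatives were other cut-offs for leukocytes, mitochondrial share, depth, CD3 and class markers, the pseudocount, TMM, the 20-UMI rule, removal of expected free RNA, and, chosen after seeing the data, leaving out the richest cell and the class without Trac.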

Additional observations from a re-analysis of the deposited data

Results flagged for a closer look

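For 26 pairs of a member and a comparison, the 2 sets differed from the adult control in opposite directions. In this pattern the member was at least 2-fold higher in CD3-detected leukocytes and at least 2-fold lower in CD3-negative leukocytes. The counting intervals of both ratios also had to exclude 1, and these intervals do not cover the spread between cells. Klrb1a at 24 h passed 2-fold in both sets but is not among the 26. The 26 pairs were 13 of 21 members compared in both sets at P14, 3 of 21 at 24 h, 6 of 22 at 48 h and 4 of 21 at 96 h. Of all genes compared in both sets, 0.594% (58 of 9764), 0.185% (18 of 9712), 0.163% (17 of 10457) and 0.0816% (8 of 9801) showed the pattern, the members included. The difference between the 2 sets was not tested, since each group is 1 library. Cells with NK or ILC1 class markers and no Trac lay on both sides of the CD3 split, in parts that differed between libraries. In NK or ILC1 class cells without Trac, whatever the CD3 genes, Cd3g was found in 83.3% of 36 cells at P14 and 43.2% of 139 in the adult control. At 24 h, 48 h and 96 h it was found in 68.75%, 57.2% and 44.3%. Trdc was found in 47.2% of these cells at P14 and 32.4% in the adult control, and Eomes in 5.56% and 29.5%. They can thus not be taken as NK cells alone. The part of these shares in the pattern was not tested. The values below are the log2 ratio to the adult control in CD3-detected cells minus that in CD3-negative cells. They share the adult control, which was the highest library for most members without CD3.

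At P14 the pattern held for 13 members. Among the granule proteins the difference was 12.24 for Gzma and 9.04 for Gzmb. Among the Ly49 genes it was 8.38 for Klra7, 7.73 for Klra9, 6.16 for Klra3 and 5.00 for Klra1. Gzmb, Klra7, Klra9 and Klra3 had 0 UMIs in CD3-negative cells at P14, so that their differences depend on the pseudocount of 1 CPM and are no bound. The calls of Klra9 and Klra3 in CD3-detected cells were lost without their richest cell, as was that of Klrb1c. Most of the CD3-detected UMIs of Klra1 at P14 were in 1 cell, and its CD3-negative UMIs at P14 were all in B-type cells. For the NKR-P1 genes the difference was 6.78 for Klrb1a, 4.92 for Klrb1b, 4.52 for Klrb1c and 2.77 for Klrb1f. It was 7.02 for Klre1, 6.53 for Ncr1 and 4.96 for Klrd1.

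After PHx fewer members showed it. At 24 h the difference was 4.27 for Klrb1b, 3.90 for Klri2 and 3.81 for Klrc2. At 48 h it was 3.51 for Ncr1, 3.49 for Klrb1b, 3.48 for Gzma, 3.29 for Klrb1a, 3.04 for Klri2 and 2.74 for Klra4. At 96 h it was 4.67 for Klra1, 4.17 for Gzma, 3.91 for Klrg1 and 3.05 for Klrb1b. Klrb1b was the only member with the pattern in all 4 comparisons. Without their richest cell, Klri2 at 24 h and Klrb1b at 96 h were no longer called in CD3-detected cells. Large shares of the CD3-detected UMIs of Klrg1 and Gzma at 96 h were in the richest cell, as given above. Klra4 at 48 h was found in 9 of 469 CD3-detected cells, against 6 of 606 in the adult control.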

How the results depend on the processing

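No paired analysis was possible because each group is 1 library and no replicate numbers pair the groups. For 17 counts of members past 2-fold, 178 values were obtained under alternatives, and 161 stayed within 1.5 times the count reported. Within libraries only the counts of higher members were varied. Where CD3 needed 2 UMIs, the CD3-negative sets and the NK or ILC1 class held the same cells, so that their counts could not move. The class also held the same cells without mixed barcodes. The 17 values outside that range were as follows, and the cause was not tested. In CD3-negative cells at 96 h the count was 10 with under 5% mitochondrial UMIs, against 18. In CD3-detected cells at 24 h, against 8, it was 2 with a pseudocount of 10 CPM, 5 with expected free RNA taken off and 5 without the richest cell. At 48 h, against 8, it was 13 with under 5% mitochondrial UMIs, 5 where CD3 needed 2 UMIs, 2 with 10 CPM and 5 with free RNA taken off, and at 96 h, against 11, it was 6 with 10 CPM. In the NK or ILC1 class a minimum of 1 UMI, which admits more genes, gave 23 at P14, 14 at 24 h, 7 at 48 h and 11 at 96 h, against 15, 6, 1 and 3, and the class without Trac gave 2 at 48 h. Higher in CD3-negative than in CD3-detected cells were 1 member at P14 without mixed barcodes and 1 without the richest cell, against 0, and 1 at 48 h with 10 CPM, against 2.

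A steady count can hold other members. With under 5% mitochondrial UMIs, the calls kept were 5 of 8 at 24 h and 6 of 11 at 96 h in CD3-detected cells, 1 of 3 at 96 h in the NK or ILC1 class and 8 of 15 within the 96 h library, and Gzmk at 24 h and Klra7 at 96 h were called in the other direction in CD3-detected cells. TMM scaling turned no sign of a called member. It ended 1 call each in CD3-negative cells at 24 h (20 of 21 kept), CD3-detected cells at P14 (17 of 18) and 96 h (10 of 11), the NK or ILC1 class at P14 (14 of 15), and within the adult control and 24 h libraries (17 of 18 in both). It moved the median of all genes by 0.28 and 0.24 at 24 h and 48 h in CD3-negative cells, 0.12 and 0.20 in CD3-detected cells, -0.55 and -0.10 at P14 and 24 h in the NK or ILC1 class, and -0.16 within the 96 h library. For 24 ratios of single members, 222 of 240 alternative values lay within the counting interval of the value reported, 18 lay outside it (9 with under 5% mitochondrial UMIs, 7 with free RNA taken off, 2 with 3 class markers) and no ratio past 2-fold changed sign. These ratios were all of the NK or ILC1 class. CD3 at 2 UMIs, no mixed barcodes and a minimum of 1 UMI left their cells and formula unchanged. The values under those settings could therefore not differ and are no support. Of 60 alternative shares of cells with a UMI, 27 moved, 17 of them unthinned and 10 thinned to 2000 UMIs. The small classes, 5 to 85 NK or ILC1 cells, limit the depth behind each value there.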
